A study of Homo sapiens with 6 samples.

Results

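The 8 genes described here encode transcription factors that set and hold hepatocyte identity: the nuclear receptors HNF4A and HNF4G, the forkhead factors FOXA1, FOXA2 and FOXA3, the leucine zipper factor CEBPA, the cut-homeobox factor ONECUT1 and the homeobox factor PROX1. They were chosen by name, and all 8 were found by Ensembl ID among 25202 rows of a count table. All 8 also passed the filter on low counts. The cells were Huh7, an established human liver cancer cell line in culture. One group of 3 libraries carried the guide labelled sghnRNPA2B1 and is labelled KO, and it is set against 3 libraries with the guide labelled sgNC, labelled WT. HNRNPA2B1, the targeted gene, encodes an RNA-binding protein that acts in splicing and RNA transport. The labels leave unsaid whether the knockout cells were 1 clone or a pool. They also leave unsaid whether the replicates came from different cultures, so each p-value rests on library-to-library spread that may be technical.

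In liver, these factors form a dense network in which each binds the promoters and enhancers of many of the others and of the genes for plasma proteins, lipid transport and bile acid metabolism. FOXA proteins can bind closed chromatin and open it, HNF4A keeps the adult hepatocyte programme running, and ONECUT1 and PROX1 act early, when hepatoblasts separate from the biliary lineage. HNF4G is best known from the intestine, and in the liver its level is usually low.

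Total counts ran from 32517757 to 38870244 per library. HNRNPA2B1 was at 8729, 8232 and 8364 counts in the knockout libraries and at 40867, 32755 and 44149 in the controls (log2 fold change −2.40 with an SE of 0.14, adjusted p = 2.28e-06 by the quasi-likelihood test of edgeR). Of 16331 genes tested across the whole table, 40.1% were called, with 21.1% that rose and 19.0% that fell at an adjusted p below 0.05, and 54.3% had knockout libraries lying wholly above or below the controls. Rises made up 52.7% of the called genes with TMM scaling, 64.4% with upper-quartile scaling and 72.1% when only library size was used. Hepatocyte markers were high in every library, the 19 secreted proteins listed for the cell type summing to 14236 to 15107 CPM (counts scaled to library size by TMM) in the knockout and 23142 to 26099 CPM in the controls. The 12 markers of blood, endothelial and mesenchymal cells summed to 172 to 181 CPM in the knockout and 232 to 324 CPM in the controls. CD68 and PECAM1 held most of that, and the other 10 summed to 2.26 to 12.3 CPM in the knockout and 2.76 to 3.47 CPM in the controls, with LRAT at 0 throughout and PTPRC at 0 in the controls and 25 counts in all in the knockout. Of this list 4 genes were tested, CD68 and PECAM1 fell and none rose. COL1A2 had a log2 fold change of 3.04 with an SE of 1.13 that did not pass (adjusted p = 0.0536 by edgeR). Its counts were 17, 125 and 9 in the knockout and 13, 0 and 4 in the controls, so knockout replicate 2 held most of them, as it did for COL1A1 with 165 of 192 knockout counts. Of this list 2 genes rose without knockout replicate 3 and 2 with no filter on low counts. The part of these markers in the results that follow was not tested. Fewer cells of a type and less RNA per cell cannot be told apart in such bulk libraries.

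Of the 8 factors, 5 fell in the knockout and none rose by the edgeR test, beside 40.1% of all genes called in either direction. The 5 were HNF4A, FOXA1, FOXA2, FOXA3 and ONECUT1. CEBPA, HNF4G and PROX1 did not pass. The call of FOXA1 was the least firm, and the number that fell was 4 to 6 over 17 other settings. The share of all tested genes that fell was 19.0%, and it was 28.8% among the 7471 genes whose mean level lay within the range of the 8 factors. Over the 8 factors the median log2 fold change stood at −0.48, beside 0.05 over all genes tested and −0.12 over genes in that range of levels. For 5 factors every knockout library lay below every control (24.8% of all genes), and for 1, HNF4G, every knockout library lay above (29.6% of all genes).

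**Figure D1:**
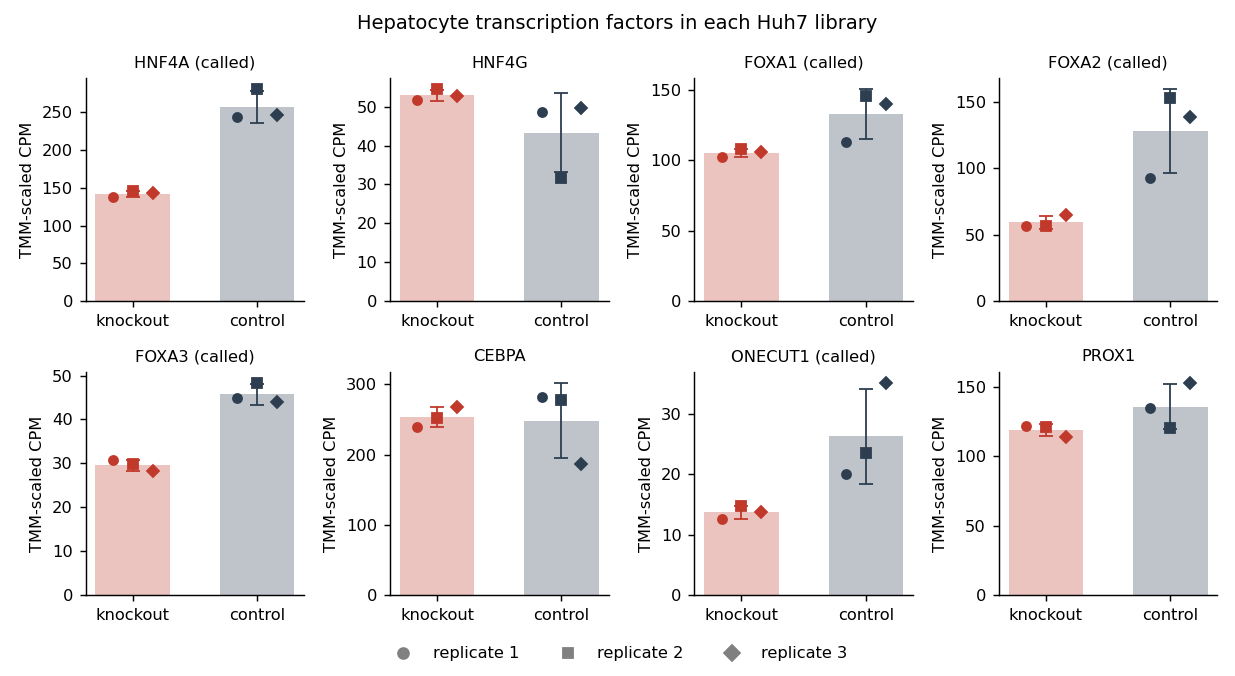
TMM-scaled CPM of each factor in the 3 knockout and 3 control libraries. Bars are means, error bars are SD over 3 libraries and symbols mark the replicate number, which was not used to pair libraries. Knockout libraries lie below all controls for HNF4A, FOXA1, FOXA2, FOXA3 and ONECUT1, and their spread is narrower than that of the controls in every panel.

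HNF4A is the nuclear receptor most closely tied to adult hepatocyte function. It had 137, 145 and 143 CPM in the knockout libraries, against 243, 280 and 246 CPM in the controls. The groups lay far apart, with the highest knockout library well under the lowest control. The means were 142 ± 4.27 CPM in the knockout and 256 ± 20.6 CPM in the controls (SD, n = 3 each), 1.81-fold lower (log2 fold change −0.85 with an SE of 0.10, adjusted p = 0.000191 by edgeR). Its log2 fold change stayed between −0.93 and −0.63 over 17 other settings, each past the threshold.

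HNF4A is transcribed from an upstream promoter, used more in fetal liver, pancreas and gut, and a downstream promoter, used in adult liver. The gene-level counts add the products of both. The 250 bases before each start are shown because several of the factors measured here are known regulators of this gene. Both are from RefSeq, where windows were found for 5 of the 8 factors (GRCh38.p14, plus strand of chromosome 20). The upstream one lies at chr20:44355449-44355698 and the downstream one at chr20:44400989-44401238. Capitals mark the motif matches given after them. The build named for the deposited counts is hg19, and these positions were not compared with it.

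HNF4A upstream promoter: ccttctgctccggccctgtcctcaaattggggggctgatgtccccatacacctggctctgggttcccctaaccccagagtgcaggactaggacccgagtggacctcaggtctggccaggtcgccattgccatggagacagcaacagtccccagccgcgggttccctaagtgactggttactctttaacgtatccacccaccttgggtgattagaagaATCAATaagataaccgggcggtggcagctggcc

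HNF4A downstream promoter: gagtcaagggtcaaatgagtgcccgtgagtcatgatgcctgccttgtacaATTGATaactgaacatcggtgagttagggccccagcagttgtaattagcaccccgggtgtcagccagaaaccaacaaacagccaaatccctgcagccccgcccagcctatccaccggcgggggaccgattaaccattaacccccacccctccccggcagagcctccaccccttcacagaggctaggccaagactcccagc

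Motifs were searched on both strands with the letters ATCAAT for ONECUT factors, TGTTTAC for FOXA factors, TTGCNNAA for C/EBP factors, AGGTCA for nuclear receptors and CAAAGTCCA for HNF4. The upstream window held 1 ONECUT match, which began 33 bases before the start. The downstream window held 1 ONECUT match, which began 200 bases before the start. Among 35116 promoter windows of the same length, 5.58% held the ONECUT letters. The other 4 motifs were not matched in either window, and they occurred in 2.98% (FOXA), 9.05% (C/EBP), 12.1% (nuclear receptor) and 0.325% (HNF4) of all windows. These are matches of letters, not sites shown to be bound.

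HNF4G, the paralog of HNF4A, did not pass. Its libraries read 51.7, 54.5 and 52.6 CPM in the knockout, against 48.6, 31.8 and 49.6 CPM in the controls. Control replicate 2 was the low one, and the other controls lay just under the knockout. The log2 fold change of 0.29 ± 0.16 (SE) gave an edgeR adjusted p of 0.177. With library size alone it was 0.47 and passed (adjusted p = 0.0403 by edgeR), and without control replicate 2 it was 0.098. The median of all genes was 0.05 with TMM and 0.24 with library size alone. Less that median, HNF4G stood at 0.235 with both scalings.

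FOXA2 had the lowest log2 fold change of the 8, except with cyclic loess and without control replicate 2, where ONECUT1 was lower. It had 56.5, 56.7 and 64.9 CPM in the knockout, against 92.3, 152.8 and 138 CPM in the controls. Control replicate 1 was the nearest to the knockout and still lay above all of it. The means were 59.4 ± 4.81 CPM in the knockout and 128 ± 31.6 CPM in the controls (SD, n = 3 each), 2.15-fold lower (log2 fold change −1.11 with an SE of 0.17, adjusted p = 0.000836 by edgeR). The log2 fold change ran from −1.33 to −0.92 over 17 other settings, all past the threshold.

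FOXA3, which in mouse liver becomes the most abundant FOXA factor after birth, fell by less. It had 30.8, 29.8 and 28.2 CPM in the knockout, against 44.8, 48.3 and 44.0 CPM in the controls, with tight values in both groups and no overlap. The change was 1.55-fold downward (log2 fold change −0.63 with an SE of 0.11, adjusted p = 0.00132 by edgeR), and it passed in all 17 other settings.

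FOXA1, a pioneer factor in liver, breast and prostate, changed the least of the 5 that fell. Its libraries read 102, 108 and 106 CPM in the knockout, against 113, 146 and 140 CPM in the controls. The groups did not overlap, but control replicate 1 was only just above the knockout. By edgeR its log2 fold change was −0.33 with an SE of 0.12 (adjusted p = 0.0462), and the call was lost in 11 of 17 other settings, with adjusted p from 0.00454 to 0.340. It was −0.23 under upper-quartile scaling and −0.15 when only library size was used, where the median of all genes also moved up, to 0.16 and 0.24. Less that median, FOXA1 stood at −0.39 with TMM and with both of those scalings. It stood at −0.15 with cyclic loess.

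ONECUT1, a factor of hepatoblast and biliary development, was the rarest of the 8 by reads. It had 12.6, 14.8 and 13.7 CPM in the knockout, against 20.1, 23.6 and 35.1 CPM in the controls. Control replicate 3 stood above its group, and the knockout lay below all controls. The means were 13.7 ± 1.13 CPM in the knockout and 26.3 ± 7.88 CPM in the controls (SD, n = 3 each), 1.92-fold lower (log2 fold change −0.94 with an SE of 0.20, adjusted p = 0.00406 by edgeR). It passed in all 17 other settings, and the log2 fold change was −0.69 without control replicate 3.

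CEBPA, a leucine zipper factor that drives metabolic genes in hepatocytes, was the most abundant of the 8 by reads, and no difference was detected. It had 240, 252 and 269 CPM in the knockout, against 282, 277 and 187 CPM in the controls. Control replicate 3 lay below every knockout library and the other controls above, so the groups overlapped in both directions. That library also had the highest share of mitochondrial counts, 4.70%, against 2.01% to 3.06% in the other 5, and the part of this in the CEBPA value was not tested. By edgeR the log2 fold change was 0.03 with an SE of 0.15 (adjusted p = 0.898), and it was −0.16 without control replicate 3 and 0.29 with cyclic loess.

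PROX1, a homeobox factor of hepatoblasts that in liver restrains HNF4A and other nuclear receptors, did not pass. It had 122, 121 and 114 CPM in the knockout, against 134, 120 and 153 CPM in the controls, and the groups overlapped at control replicate 2. By edgeR the log2 fold change was −0.19 with an SE of 0.12 (adjusted p = 0.213). Offsets for GC content and transcript length, a setting added after seeing the data, moved it to −0.42 and past the threshold (adjusted p = 0.00176), while cyclic loess gave −0.003. PROX1 has the lowest GC content of the 8 transcripts, 40.7%, and CEBPA the highest, 65.9%. The PROX1 call thus depends on that correction, whose part was not tested further.

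**Figure D2:**
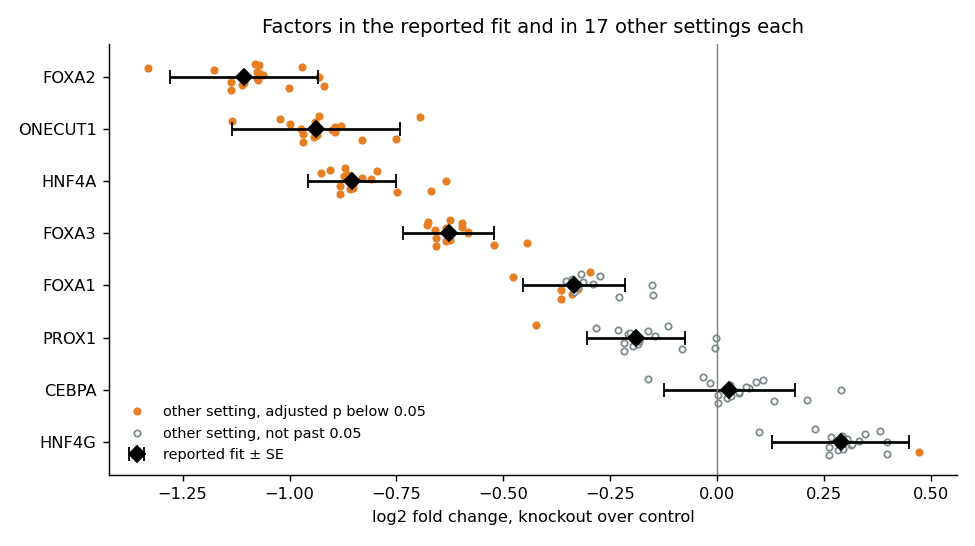
Log2 fold change, knockout over control, of each factor. Black diamonds are the reported edgeR values with SE, and dots are the values under 17 other settings of scaling, filter, test, design or libraries left out, filled where the adjusted p was below 0.05. FOXA2, ONECUT1, HNF4A and FOXA3 are filled throughout and left of 0, while FOXA1 is mostly open.

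Per kilobase of transcript, CEBPA was also the highest of the 8. Its level was 96.4 ± 5.50 CPM per kb in the knockout and 94.5 ± 20.4 CPM per kb in the controls (SD, n = 3 each), using the longest principal transcript of GENCODE release 29. In the knockout, FOXA1 came next at 36.8, followed by HNF4G at 30.6, FOXA2 at 24.7, HNF4A at 22.0, FOXA3 at 14.9, PROX1 at 13.99 and ONECUT1 at 6.55 CPM per kb. All neighbours in that order lay apart over the libraries, except FOXA3 and PROX1. In the controls, FOXA2 came second at 53.2, then FOXA1 at 46.5, HNF4A at 39.8, HNF4G at 25.1, FOXA3 at 23.0, PROX1 at 15.97 and ONECUT1 at 12.6 CPM per kb. There FOXA2 overlapped with FOXA1, FOXA1 with HNF4A, HNF4G with FOXA3 and PROX1 with ONECUT1, and the other neighbours lay apart. The place of HNF4G depends on the length used, since with all annotated exons merged it was at 11.01 CPM per kb in the knockout and 9.02 in the controls, below PROX1 in both groups.

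Ratios between related factors within a library do not depend on the scaling and show where family members changed unequally. The smallest p that 3 libraries against 3 allow in an exact 2-sided permutation test is 0.1, so no ratio could pass, and 6 ratios were tested. The log2 ratio of FOXA1 to FOXA2 was 0.86, 0.93 and 0.71 in the knockout and 0.29, −0.07 and 0.02 in the controls, with no overlap. It was higher by 0.75 ± 0.13 (SE) in the knockout (exact permutation p = 0.1, adjusted p = 0.15). FOXA1 made up 48.2% ± 1.10 of FOXA reads per kilobase in the knockout and 38.01% ± 1.30 in the controls (SD, n = 3 each). FOXA2 made up 32.3% ± 1.95 in the knockout and 43.0% ± 4.09 in the controls. FOXA3 held 19.5% ± 1.30 in the knockout and 19.0% ± 2.94 in the controls. With all annotated exons merged as the length, FOXA1 held 42.2% in the knockout and 32.4% in the controls.

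The log2 ratio of HNF4G to HNF4A showed the widest shift of the 6. It was −1.41, −1.41 and −1.45 in the knockout and −2.32, −3.14 and −2.31 in the controls, a difference of 1.17 ± 0.27 (SE; exact permutation p = 0.1, adjusted p = 0.15). Control replicate 2 was the outlying library, and all knockout libraries lay above all controls. FOXA1 to FOXA3 differed by 0.30 ± 0.11 and ONECUT2 to ONECUT1 by 0.44 ± 0.17 (SE), again with no overlap (exact permutation p = 0.1, adjusted p = 0.15 for each). FOXA3 to FOXA2 differed by 0.45 ± 0.23 with overlapping groups (exact permutation p = 0.2, adjusted p = 0.24). CEBPB to CEBPA differed by −0.07 ± 0.24 (exact permutation p = 0.9, adjusted p = 0.9).

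**Figure D3:**
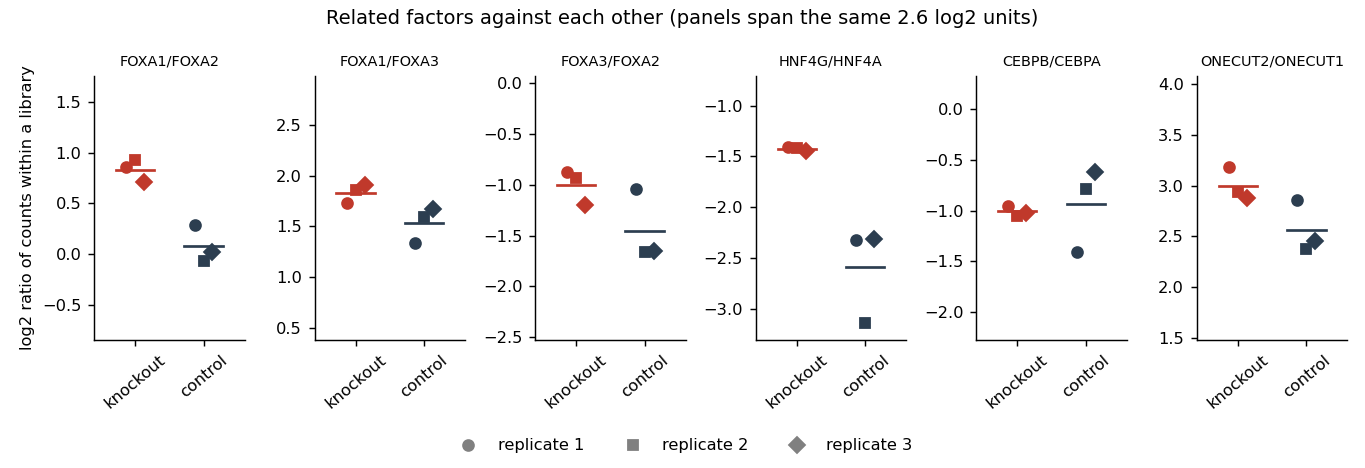
Log2 ratio of the counts of related factors within each library, knockout left of control in each panel. Symbols are libraries and lines are means of 3, and all panels span the same range. The HNF4G/HNF4A and FOXA1/FOXA2 panels show knockout libraries wholly above the controls, and the CEBPB/CEBPA panel shows overlap.

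Of 16 listed family relatives of the 8, 14 were tested, 3 fell and 2 rose, beside 19.0% that fell and 21.1% that rose over all genes, so the counts lie near the background (medians −0.15 for the list and 0.05 for all genes). FOXM1, a forkhead factor of the cell cycle, had 130 ± 5.07 CPM in the knockout and 254 ± 40.8 CPM in the controls (SD, n = 3 each; log2 fold change −0.97 with an SE of 0.13, adjusted p = 0.000329 by edgeR). ONECUT2 fell 1.40-fold and FOXK1 fell 1.34-fold, while CEBPG rose 1.30-fold and FOXQ1 rose 1.42-fold. FOXM1 was called in all 17 other settings, and each of these 4 lost its call without knockout replicate 2 and without knockout replicate 3. CEBPB had a log2 fold change of −0.04 ± 0.15 and CEBPD of 0.08 ± 0.14 (SE), and like CEBPA they did not pass. The number that fell ran from 1 to 5 and the number that rose from 0 to 3 over 17 other settings, with falls at 1 without knockout replicate 2 or 3 and with library size alone. Rises were 1 without knockout replicate 1 and 0 without knockout replicate 2 or 3.

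Of 25 other liver transcription factors listed, all tested, 13 fell and 2 rose, beside 19.0% and 21.1% over all genes. Their median log2 fold change was −0.37. CREB3L3, a membrane-bound factor of lipid metabolism, had 79.1 ± 3.86 CPM in the knockout and 246 ± 63.8 CPM in the controls (SD, n = 3 each; log2 fold change −1.64 with an SE of 0.17, adjusted p = 8.89e-05 by edgeR). The orphan receptor NR2F1 fell 3.23-fold, the endoderm factor GATA4 1.76-fold and the fatty acid receptor PPARA 1.58-fold. GATA6 had a log2 fold change of −0.21 ± 0.13 and the orphan receptor ESRRA of 0.29 ± 0.20 (SE), and neither passed.

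The 2 rises were of NR0B2, which encodes the corepressor SHP, and SALL4, a factor of fetal liver, both named after their values were seen. NR0B2 was at 1.67 ± 0.0499 CPM in the knockout and 0.871 ± 0.15 CPM in the controls (SD, n = 3 each), and SALL4 at 46.0 ± 1.69 CPM in the knockout and 34.8 ± 6.50 CPM in the controls. Neither is firm, since NR0B2 lost its call in 11 of 17 other settings and SALL4 in 6, and no listed factor rose when knockout replicate 1, 2 or 3 or control replicate 1 or 2 was left out or with DESeq2's size factors.

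Genes known as HNF4A targets included many that fell. Of 30 listed, 24 were tested, 15 fell and 3 rose, at a median log2 fold change of −0.82, beside 19.0% and 21.1% over all genes. SERPINA1, alpha-1 antitrypsin, had 397 ± 34.0 CPM in the knockout and 1239 ± 166 CPM in the controls (SD, n = 3 each; log2 fold change −1.64 with an SE of 0.12, adjusted p = 1.08e-05 by edgeR). APOM, a high-density lipoprotein component, fell 4.01-fold. APOC2, the activator of lipoprotein lipase, fell 2.89-fold, the angiotensin precursor AGT 2.20-fold and APOH 2.05-fold. VTN, vitronectin, and TTR, transthyretin, are both abundant and did not pass, with log2 fold changes of −0.10 ± 0.11 and 0.22 ± 0.14 (SE). UGT1A1, which encodes the bilirubin-conjugating enzyme, was among the rises (2.61-fold). The rises numbered 5 under upper-quartile scaling and 6 when only library size was used. UGT1A1 shares exons with other genes of its locus, so its counts are uncertain. The gluconeogenic genes G6PC1 and PCK1 and the bile acid enzymes CYP7A1 and CYP8B1 had too few counts to be tested.

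Of the listed FOXA targets, 8 are also on that list. Of 15 listed, 13 were tested, 7 fell and 3 rose, beside 19.0% and 21.1% over all genes, at a median of −0.64. The glucose transporter SLC2A2 had 9.65 ± 0.702 CPM in the knockout and 42.0 ± 6.58 CPM in the controls (SD, n = 3 each; log2 fold change −2.12 with an SE of 0.15, adjusted p = 6.42e-06 by edgeR). APOA1, the main protein of high-density lipoprotein, fell 3.32-fold, and AFP, alpha-fetoprotein, 1.74-fold. IGFBP1, which binds insulin-like growth factors, went the other way, at 5.02 ± 0.960 CPM in the knockout and 0.422 ± 0.144 CPM in the controls (SD, n = 3 each; log2 fold change 3.55 with an SE of 0.33, adjusted p = 4.29e-05 by edgeR). CPS1, a urea cycle enzyme, had a log2 fold change of −0.20 ± 0.12 (SE) and did not pass. Falls numbered 4 with cyclic loess, where ALB, AFP and APOB lost their calls.

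Of 14 listed CEBPA targets, 9 were tested, 4 fell and 1 rose, beside 19.0% and 21.1% over all genes. The median was −0.20, and 2 rose without control replicate 2, with library size alone and with cyclic loess. Of the 5 called, SERPINA1, which fell, and UGT1A1, which rose, are also on the HNF4A list. Haptoglobin (HP) had 6.39 ± 1.61 CPM in the knockout and 21.1 ± 3.67 CPM in the controls (SD, n = 3 each). Albumin (ALB) fell 1.64-fold and ORM1, an acute phase protein with a close paralog, 1.52-fold. Of 13 listed partners and targets of ONECUT1 and PROX1, 8 were tested, 5 fell and none rose, beside 19.0% and 21.1% over all genes. Their median was −0.55. Among the falls were ONECUT2, the growth factor receptor FGFR3 (1.81-fold), and the corepressor subunits KDM1A (1.66-fold) and HDAC3 (1.54-fold). NR5A2, a receptor bound by PROX1, had a log2 fold change of 0.09 ± 0.12 (SE). With library size alone, with cyclic loess and without control replicate 2, 1 gene of this list rose.

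Of 19 listed coactivators, corepressors and factors that degrade C/EBP proteins, 17 were tested, 7 fell and 4 rose, at a median of −0.30. Over all genes 19.0% fell and 21.1% rose, so the count of rises lies near the background. PPARGC1B, a coactivator of nuclear receptors, had 26.0 ± 1.20 CPM in the knockout and 56.1 ± 5.25 CPM in the controls (SD, n = 3 each; log2 fold change −1.11 with an SE of 0.11, adjusted p = 7.68e-05 by edgeR). The corepressor TLE3 fell 1.58-fold and the chromatin remodeller SMARCA4 1.59-fold. EP300 and NCOR1 had log2 fold changes of −0.37 ± 0.16 and −0.30 ± 0.14 (SE) and did not pass. The 4 rises, named after their values were seen, were NR0B2, NCOA1, TRIB1 (1.53-fold) and COP1 (1.35-fold), the last 2 of which act together to have CEBPA protein degraded. Protein levels were not measured here. There were 11 falls when control replicate 1 was left out and 12 under the GC and length correction, and 2 rises when knockout replicate 1 was left out.

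Secreted hepatocyte proteins, which include many targets of these factors, mostly fell. Of 19 tested, 16 fell and none rose, beside 19.0% and 21.1% over all genes, at a median of −0.81. AHSG, fetuin-A, had 81.5 ± 9.88 CPM in the knockout and 259 ± 26.4 CPM in the controls (SD, n = 3 each). FGA, the fibrinogen alpha chain, fell 1.86-fold. AMBP, a precursor of plasma protease inhibitors, had a log2 fold change of −0.18 ± 0.15 (SE). With library size alone, with cyclic loess and without control replicate 2, 1 of the 19 rose.

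Biliary and gut endoderm genes went the opposite way in number. Of 19 listed, 14 were tested, 8 rose and 2 fell, beside 21.1% and 19.0% over all genes, at a median of 0.66. ISX, a homeobox factor of the intestine, had 31.8 ± 2.31 CPM in the knockout and 9.39 ± 1.89 CPM in the controls (SD, n = 3 each; log2 fold change 1.76 with an SE of 0.16, adjusted p = 3.82e-05 by edgeR). KLF4 rose 4.88-fold and SPP1, osteopontin, 3.93-fold, both at under 10 CPM in the knockout. The falls were of abundant factors, SOX9, a biliary and progenitor factor (2.21-fold), and KLF5 (1.68-fold). The intestinal factor CDX2 had a log2 fold change of −0.16 ± 0.18 and EPCAM of 0.26 ± 0.10 (SE), and neither passed. The summed level of this list was 1033 to 1065 CPM in the knockout and 957 to 1191 CPM in the controls, so the groups overlapped.

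**Figure D4:**
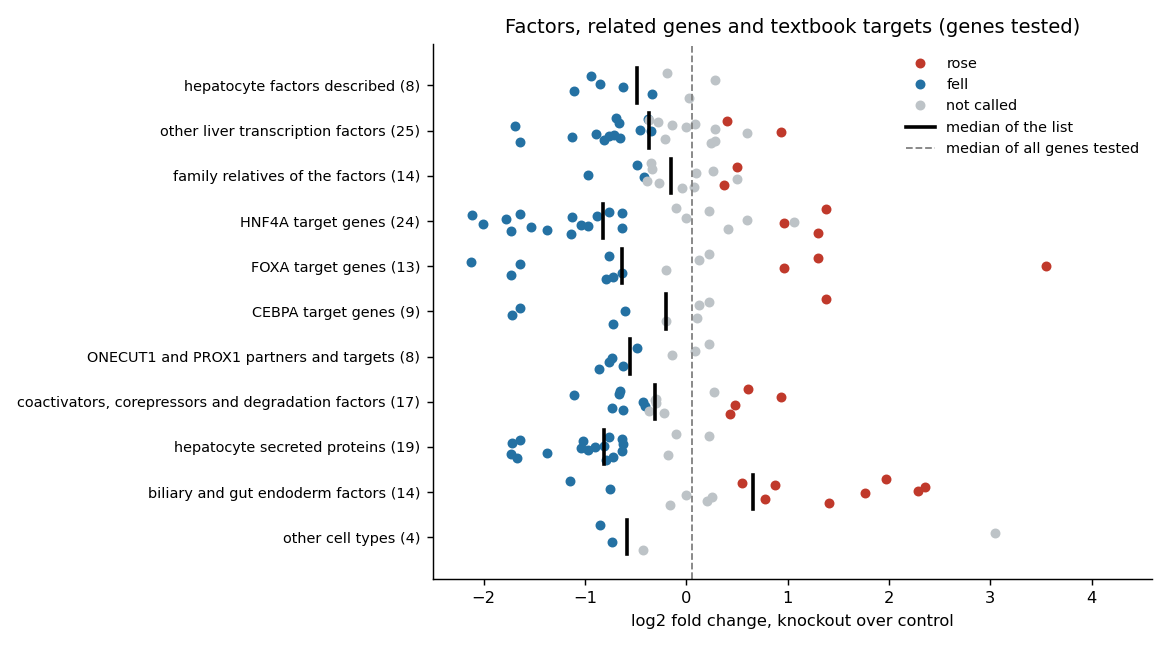
Log2 fold change, knockout over control, of every tested gene in each list, with the number tested in brackets. Dots are genes, red where they rose, blue where they fell and grey where they did not pass, black bars are list medians and the dashed line is the median of all genes tested, 0.05. Medians lie left of that line for all lists except the biliary and gut endoderm genes.

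The genes whose levels were most like those of HNF4A over the 6 libraries were COPS6, ZNF598 and HNRNPAB, each with a Pearson r of 0.999 among 10336 genes at a mean log2 CPM of 3 or more. BCKDHA and EPAS1 were among the 3 most like FOXA2, each at 0.999. The 6 libraries share the step between the groups, and 19.6% of genes had an r over 0.9 with HNF4A and 17.2% with FOXA2. The likeness is a description.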

How the data were processed

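RNA-seq of 6 Huh7 libraries was used, 3 with a guide against HNRNPA2B1 and 3 with a control guide. RNA came from a Qiagen column kit and the libraries from a SMARTER mRNA kit, per the labels' protocols. The deposited values are raw counts per gene, which the authors made. Their genome build is listed as hg19 per the submitters' processing notes. Aligner, counter, annotation and strand setting were not given in the sources used here, so overlapping and antisense genes can share reads, as can close paralogs. The antisense and divergent RNAs at HNF4A, FOXA2, CEBPA and PROX1 were not analysed here.

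Of 25202 rows, 19974 carry an Ensembl ID (19883 matched to a symbol) and 5228 are loci added by the authors' pipeline. The counts went into edgeR 4.0.16 under R 4.3.3: filterByExpr, TMM scaling, a quasi-likelihood test on group alone, and Benjamini-Hochberg adjustment over all 16331 genes tested. SEs derive from the fold change and its F statistic. Alternatives used limma 3.58.1, DESeq2 1.42.0 and offsets from a loess on GC content and length. Transcript lengths and GC content came from GENCODE release 29 (GRCh38). Ratios used counts plus 0.5.

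On data simulated for this comparison (16331 genes), the code recovered 24% of the 1.5-fold changes and 52% of the 2-fold ones. Of the 4-fold changes it found 86%, and of the 8-fold ones 94%. Only 50 genes were changed at each size, drawn over all levels, while 40.1% of genes were called in the real data. These shares therefore do not give the power for the 8 factors. Replicates differed by a chi-square of 9.35 or more per degree of freedom, so each library was counted. The factors and gene lists were chosen with earlier results of these data known. Named from each list were up to 5 called genes with the smallest p, and up to 2 abundant genes that did not pass; every called family relative was named. A few genes picked this way are not reported here. Figures were drawn with matplotlib 3.10.9.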

Additional observations from a re-analysis of the deposited data

How the results depend on the processing

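Over 17 other settings the calls of HNF4A, FOXA2, FOXA3, ONECUT1 and HNRNPA2B1 held in direction and threshold. FOXA1 did not pass with upper-quartile scaling (−0.23), library size alone (−0.15), a filter of 1 CPM (−0.33), cyclic loess (−0.15), without the added loci (−0.29) or under the replicate block (−0.33), and ran from −0.48 to −0.27 as each library was left out. HNF4G passed with library size alone (0.47), so 1 factor rose there, and PROX1 with offsets for GC content and length (−0.42), added after seeing the data. CEBPA turned to −0.034 with those offsets and ran from −0.16 to 0.11 as libraries were left out. The difference in the log2 ratio of CEBPB to CEBPA, reported as −0.07, ran from −0.303 to 0.0878 there. Over all genes, 1878 fell with library size alone against 3100, and 2047 to 3439 as libraries were left out. The cause was not tested for any of these, and the values with a library left out also rest on fewer libraries. Counts of factors that fell ran from 4 to 6.

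Deviations from group means correlated at 0.07, −0.21 and −0.21 between same-numbered libraries, and from −0.15 to 0.29 between the other pairs. With 3 libraries a group this cannot tell whether the numbers pair libraries, and the reported test did not pair them. With the replicate block, 3126 genes rose and 2613 fell. In ratios, pairing by number leaves the differences as they are. For the HNF4G to HNF4A difference of 1.17, an exact sign-flip permutation test under the replicate block gave an adjusted p of 0.3. With 3 pairs that test could not pass the threshold whatever the values, so it does not weigh on the difference. With 3 libraries a group, 24% of simulated 1.5-fold changes were recovered, over genes of all levels and with few genes changed.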
